A study of Mus musculus with 10 samples.

Results

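Glb1l3 and Rabgef1 were among the genes whose RNA was lowest, relative to the control, in mouse neural retinas after 1 day of intense light. Both genes are described here together with Gm15920 and Gm15921, the processed pseudogenes annotated inside Rabgef1. These are 4 genes of the 54532 in the deposited table. They were chosen because earlier results of the same data showed large decreases of Glb1l3 and Rabgef1, so the light damage (LD) against normal light (NL) values of the 4 genes are a description and carry no test.

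RNA was sequenced from the retinas of 2-month-old BALB/c mice, an albino strain sensitive to light. All mice spent 12 h in the dark and then 1 day at either 200 lux (the NL group, 5 retinas) or 15000 lux (the LD group, 5 retinas). No gene was altered and no drug was given in these samples. The labels do not say which retinas, if any, came from the same animal, so p-values measure only the spread between these retinas.

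The NL libraries held 21343389 to 26832535 recovered reads and the LD libraries 18965090 to 23378090. A single read on a transcript of 1 kb was worth 0.0388 to 0.0493 FPKM, the unit of the deposited values (fragments scaled by gene length and by the number mapped). Of the 20 pairs of retinas of the same group, 3 pairs (NL-5 with NL-7, LD-1 with LD-7, and LD-4 with LD-6) were closer to each other than the other 17 pairs, although they still differed by more than counting noise, and values with these pairs averaged are given beside the main results. Rod markers identified the tissue: the summed FPKM of 16 rod genes lay between 12056 and 14618 in NL and between 1961 and 3788 in LD.

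Rabgef1 encodes Rabex-5, a guanine nucleotide exchange factor that loads the small GTPase Rab5 with GTP through its VPS9 domain and so drives fusion of early endosomes. Rabex-5 binds the Rab5 effector rabaptin-5 (Rabep1) and can attach ubiquitin to Ras, and it is known for restraining Kit and IgE receptor signalling in mast cells. Glb1l3 encodes a beta-galactosidase-like protein of the glycoside hydrolase family of Glb1, the lysosomal beta-galactosidase that removes terminal galactose from glycolipids and glycoproteins. A processed pseudogene is a copy of a spliced mRNA inserted in the genome, and its reads can be hard to tell from those of its parent gene.

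Rabgef1 (ENSMUSG00000025340) lies on the plus strand at chr5:130171798-130214342 of GRCm38 and has 9 annotated transcripts, of which 4 are protein-coding. Of the protein-coding transcripts, 2 begin at the upstream end of the gene, 0.026 kb apart, and 2 begin at an internal start 15.363 kb into the gene. Gm15920 (ENSMUSG00000080893, chr5:130188395-130188796, plus strand) is a copy of Ndufa12, which encodes a subunit of mitochondrial complex I. It lies in intron 2 of the longest Rabgef1 transcript, 808 bases after the exon before it. Gm15921 (ENSMUSG00000094092, chr5:130208080-130208562, minus strand) resembles Rpl21, a ribosomal protein gene, and lies in intron 5, 123 bases before the next exon. Neither pseudogene shares a base with a Rabgef1 exon.

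**Figure D1:**
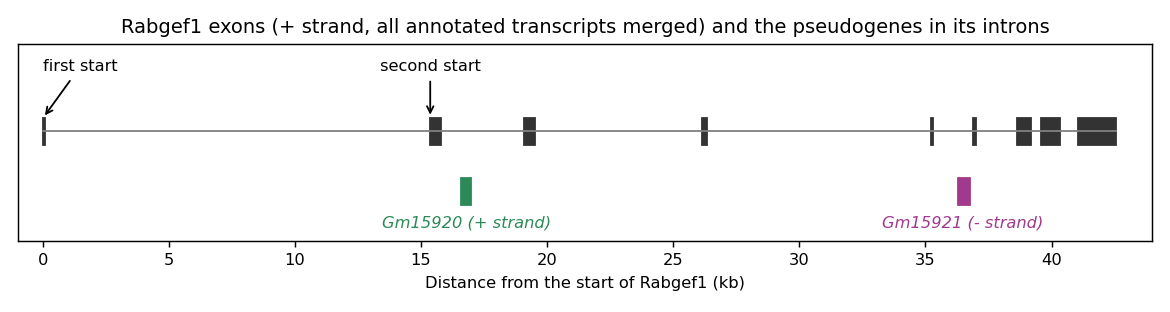
Map of Rabgef1 in GRCm38, with the distance from its first annotated base in kb on the x axis, exons of all annotated transcripts merged (black boxes) and the pseudogenes drawn below. Gm15920 sits 16.597 kb and Gm15921 36.282 kb from the gene's start, both between exons.

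The promoters of the genes with the large decreases are shown because the starts of Rabgef1 differ in base composition. Each line gives the 250 bases upstream of an annotated RefSeq start in GRCm38.p6, read along the gene's strand. Capitals mark the letters TAATCC, the core that the photoreceptor factor CRX binds. The windows are chr5:130186930-130187179 for the internal Rabgef1 start, chr5:130171569-130171818 for its upstream start and chr9:26860824-26861073 (minus strand) for Glb1l3. The RefSeq starts differ from those in the GENCODE M21 annotation (130187161, 130171798 and 26860890 in the same order), which lie inside these windows.
Rabgef1 internal start: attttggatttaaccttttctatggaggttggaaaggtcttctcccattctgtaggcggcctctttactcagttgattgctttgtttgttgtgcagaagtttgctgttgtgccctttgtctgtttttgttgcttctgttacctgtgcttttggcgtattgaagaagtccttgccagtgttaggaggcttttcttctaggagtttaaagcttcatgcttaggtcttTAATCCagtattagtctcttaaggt
Rabgef1 upstream start: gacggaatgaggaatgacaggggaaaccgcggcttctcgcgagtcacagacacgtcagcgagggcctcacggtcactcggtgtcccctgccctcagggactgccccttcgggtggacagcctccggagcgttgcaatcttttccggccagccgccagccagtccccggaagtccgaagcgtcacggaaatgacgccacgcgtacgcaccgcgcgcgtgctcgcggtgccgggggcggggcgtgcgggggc
Glb1l3: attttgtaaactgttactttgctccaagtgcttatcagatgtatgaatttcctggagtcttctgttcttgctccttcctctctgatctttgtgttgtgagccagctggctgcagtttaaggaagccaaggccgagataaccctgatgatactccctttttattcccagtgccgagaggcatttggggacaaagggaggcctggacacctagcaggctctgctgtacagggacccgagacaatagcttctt

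The window before the internal Rabgef1 start was 40.8% G and C, against 69.2% before the upstream start shown (70.8% for another RefSeq start beside it, with neither motif), 48.0% for Glb1l3 and a median of 52.4% over 32851 RefSeq promoter windows of the same length. On either strand, TAATCC (reverse GGATTA) occurred once in the internal Rabgef1 window, with its first base 25 bases upstream of the RefSeq start. TGCTGA (reverse TCAGCA), part of the site of the rod factor NRL, occurred in none of the windows shown. TAATCC was present in 6.25% of all promoter windows and TGCTGA in 16.1%, and of the 10 rod genes with a window, 4 held TAATCC and 2 held TGCTGA. These matches describe letters only. The deposited table gives 1 value per gene, so reads from the upstream and internal starts of Rabgef1 cannot be told apart.

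The sequence of Gm15920 is shown beside that of Ndufa12 because the copy is nearly identical to its parent. Of the 402 bases of Gm15920, 400 (99.5%) matched the Ndufa12 transcript, and the differences were A99G and T378C (the Ndufa12 base first, then the position counted from 1 at the first base of the pseudogene, then the pseudogene base). Both lie in the coding part of Ndufa12. The lines show the bases around each difference, with the differing base in capitals, at chr5:130188463-130188523 and chr5:130188742-130188793 for Gm15920 and at chr10:94199968-94200028 and chr10:94220807-94220858 for Ndufa12, all on the plus strand of GRCm38.
Gm15920 at A99G: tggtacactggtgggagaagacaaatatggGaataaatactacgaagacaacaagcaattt
Ndufa12 at A99G: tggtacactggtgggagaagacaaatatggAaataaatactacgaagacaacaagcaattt
Gm15920 at T378C: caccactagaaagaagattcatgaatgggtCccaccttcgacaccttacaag
Ndufa12 at T378C: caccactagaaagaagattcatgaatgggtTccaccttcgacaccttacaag

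Glb1l3 RNA was a small fraction of its control level in every LD retina. Its level was 2.88, 3.36, 4.05, 2.93 and 1.29 FPKM in retinas NL-1, NL-4, NL-5, NL-7 and NL-8, and 0.282, 0.188, 0.120, 0.184 and 0.240 FPKM in LD-1, LD-4, LD-6, LD-7 and LD-8. The groups did not overlap: NL-8 was the lowest control and still lay 4.57-fold above LD-1, the highest LD retina. The mean was 2.90 ± 1.02 FPKM in NL and 0.203 ± 0.0615 FPKM in LD (SD, n = 5 each), so the LD mean was 7.0% of the NL mean, a 14.3-fold difference. The difference of the mean log2(FPKM + 0.1) was −3.25, with a pooled SD of 0.48, and it was −3.13 with the closest pairs averaged.

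The Glb1l3 level rested on few reads in the LD group. Between 87 and 215 reads were recovered in each NL retina and between 7 and 18 in each LD retina. Summed over retinas, the counts were 813 in NL (exact Poisson 95% interval 758 to 871) and 60 in LD (45.8 to 77.2), intervals that cover counting error only. Because LD values were close to the pseudocount of 0.1 FPKM, the log2 difference was −1.65 with a pseudocount of 1 FPKM and −3.73 with 0.01 FPKM. Glb1l3 (ENSMUSG00000031966, chr9:26817953-26860890, minus strand, 20 exons in its longest transcript) overlapped no other gene of the table, and none of its 50-base stretches occurred in another annotated gene.

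Rabgef1 was abundant in the control retinas and much lower after LD. The level was 98.2, 90.1, 121, 119 and 84.4 FPKM in NL-1, NL-4, NL-5, NL-7 and NL-8, and 16.8, 11.7, 12.7, 14.6 and 19.6 FPKM in LD-1, LD-4, LD-6, LD-7 and LD-8. Every LD retina was below every NL retina, with NL-8 lying 4.31-fold above LD-8. The mean was 103 ± 16.7 FPKM in NL and 15.1 ± 3.19 FPKM in LD (SD, n = 5 each), 14.7% of the NL level and a 6.80-fold difference. As mean log2(FPKM + 0.1) it differed by −2.77 with a pooled SD of 0.27, and −2.64 with the closest pairs averaged.

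Counting error was small for Rabgef1, for which each NL retina held 7977 to 10491 reads and each LD retina 988 to 1817. None of its exonic 50-base stretches occurred in another annotated gene. In order of mean FPKM among 22046 protein-coding genes, Rabgef1 went from place 228 in NL to place 3559 in LD, and Glb1l3 from 9981 to 14812. Ranked by log2 difference from the lowest, Glb1l3 was at place 18 and Rabgef1 at place 33 of the 24508 genes tested, and they were at places 2 and 4 of the 15464 protein-coding genes.

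Gm15921 was lower in LD as well, at a low level. Its FPKM was 3.00, 1.75, 2.96, 3.02 and 2.33 in NL-1, NL-4, NL-5, NL-7 and NL-8, and 0.509, 0.408, 0.463, 0.636 and 0.279 in LD-1, LD-4, LD-6, LD-7 and LD-8. The groups did not overlap, and their means were 2.61 ± 0.560 and 0.459 ± 0.131 FPKM (SD, n = 5 each), a log2 difference of −2.28 with a pooled SD of 0.34, or −2.32 with the closest pairs averaged. The reads behind these values numbered 18 to 31 in each NL retina, 3 to 7 in each LD retina, or 138 (exact Poisson 95% interval 116 to 163) and 25 (16.2 to 36.9) in all. Retina LD-8, with 3 reads, was at the floor used here.

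Gm15920 stood apart from the gene that surrounds it. It measured 64.6, 68.7, 67.4, 72.2 and 72.0 FPKM in NL-1, NL-4, NL-5, NL-7 and NL-8, and 62.8, 85.1, 80.4, 69.9 and 76.8 FPKM in LD-1, LD-4, LD-6, LD-7 and LD-8. The groups overlapped: LD-1 was the lowest of all 10 retinas and LD-4 the highest. The means were 69.0 ± 3.23 and 75.0 ± 8.79 FPKM (SD, n = 5 each), a log2 difference of 0.11 with a pooled SD of 0.13, from 550 to 747 reads (NL) and 616 to 723 reads (LD) in each retina. It was 0.13 with the closest pairs averaged, 0.07 without LD-4 and 0.18 without LD-1.

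All 4 genes reached 0.1 FPKM in all 10 retinas, so each passed the filter on low values in both groups. All 5 LD retinas lay below all 5 NL retinas for 3 of the 4 genes, and for 10.6% of all genes tested. Of all genes tested, 2.37% were past the study's thresholds (an adjusted p under 0.01 and more than a 2-fold change) on the lower side. The 4 genes were chosen on this contrast, so no call is given for them and nothing is read from the count of genes without overlap.

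**Figure D2:**
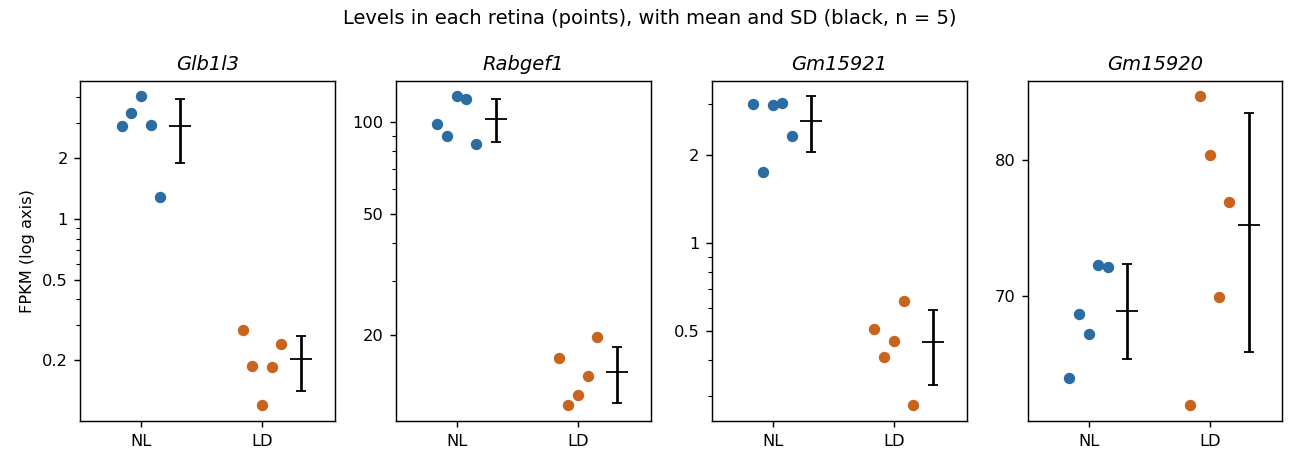
FPKM on a log axis for each NL and LD retina (points), with the group mean and SD in black (n = 5). The groups are apart for Glb1l3, Rabgef1 and Gm15921 and overlap for Gm15920, whose axis covers a much narrower range.

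The pseudogenes were then set against their host and their parents. Gm15921 amounted to 2.55 ± 0.41% of the Rabgef1 FPKM in NL and 3.19 ± 1.10% in LD (SD, n = 5), with overlapping ranges of 1.95 to 3.06% and 1.42 to 4.35%. Gm15920 amounted to 68.8 ± 12.0% of the Rabgef1 FPKM in NL and 522 ± 155% in LD. The ranges for Gm15920, 55.6 to 85.3% and 375 to 728%, did not overlap. Whether the counting used strand is not given in the sources used here, so reads of Gm15921 and unspliced Rabgef1 reads across the same bases cannot be told apart.

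Most short stretches of Gm15920 did not separate it from its parent Ndufa12, whose transcript of 1110 bases it matches over 402 bases only. Of the 353 stretches of 50 bases in Gm15920, 278 (78.8%) occurred unchanged in another gene, which was Ndufa12 in every case. The study's reads were longer than 50 bases, so a larger share of reads than of these stretches can cover a differing base. Ndufa12 itself measured 15.4 ± 3.88 FPKM in NL and 14.7 ± 5.41 FPKM in LD, and its log2 difference of −0.09 did not pass the test (limma, adjusted p = 0.807). Reads assigned to Gm15920 made up 45.5 to 62.3% of the combined Gm15920 and Ndufa12 reads in NL and 44.9 to 66.6% in LD. The combined reads numbered 973 to 1209 (NL) and 1042 to 1529 (LD) in each retina, so the share held by the pseudogene covered similar ranges in both groups. How the counting divided reads that match both is not given in the sources used here, and the Gm15920 level is uncertain for that reason.

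Gm15921 was also part of a large family of copies. It matched Rpl21 at 96.7% over its 483 bases, with 16 mismatches and no identical run longer than 95 bases. Of its 434 stretches of 50 bases, 45.6% occurred in at least 1 of 72 other genes. Rpl21 measured 2.13 ± 1.35 FPKM in NL and 1.42 ± 0.18 FPKM in LD (limma, log2 difference −0.41, adjusted p = 0.333). Copies were counted separately, as genes matching Gm15921 by BLAST at 90% identity or more over at least 450 bases. Beside Rpl21, 71 such copies were in the table, of which 36 were tested and none was past the thresholds in either direction. Their median log2 difference was −0.06, with a range of −1.24 to 0.85 (at an unadjusted p under 0.05, 1 higher and 4 lower, and limma-voom also called 0). Gm15921, at −2.28, lay below all of them.

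The family of Glb1l3 came next, because a gene of this family lies beside it. Glb1l2, another beta-galactosidase-like gene on the same strand, is 11.5 kb from Glb1l3 at chr9:26763044-26806468. Its level was 21.9, 18.7, 25.1, 23.0 and 17.7 FPKM in NL-1, NL-4, NL-5, NL-7 and NL-8, and 4.08, 2.38, 2.65, 3.59 and 3.85 FPKM in LD-1, LD-4, LD-6, LD-7 and LD-8. The groups did not overlap, and Glb1l2 was lower in LD (log2 difference −2.67, SE 0.16, limma adjusted p = 1.18e-06), from 21.3 ± 3.06 to 3.31 ± 0.752 FPKM, and with the closest pairs averaged (−2.58, adjusted p = 1.39e-04). Glb1l2 was not used to choose the genes described, but it was known from the same data, so it is no independent support for them.

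Glb1l3 was 13.4 ± 4.06% of the Glb1l2 FPKM in NL and 6.14 ± 1.37% in LD, with NL-8 (7.27%) inside the LD range of 4.50 to 7.92%. The sequences of these genes were far enough apart to be counted separately, with 67.6% identity over 1128 aligned bases and no identical run longer than 19 bases. Of the 3 other family members, Glb1l2 was called lower and none higher, also by limma-voom (at an unadjusted p under 0.05, 1 lower and 1 higher), beside 2.37% lower and 4.13% higher among all genes tested. Glb1, the lysosomal enzyme itself, went from 2.95 ± 0.307 to 4.11 ± 0.579 FPKM (log2 difference 0.46, SE 0.11, limma adjusted p = 0.00918), which is below the 2-fold threshold, and its adjusted p was 0.0618 with the closest pairs averaged. Glb1l measured 4.66 ± 0.330 FPKM in NL and 3.86 ± 0.930 FPKM in LD (log2 difference −0.29, adjusted p = 0.155).

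**Figure D3:**
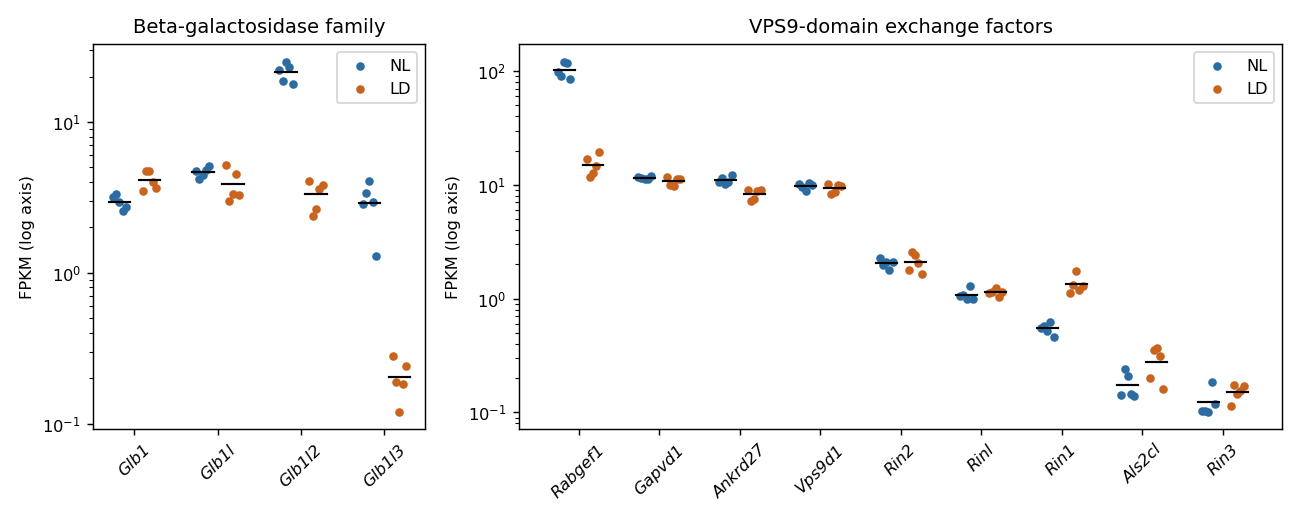
FPKM on a log axis of the beta-galactosidase family (left) and of Rabgef1 with 8 other VPS9-domain exchange factors (right), with points for retinas and black lines for group means (n = 5 each). Glb1l2 and Glb1l3 are lower in LD on the left, and Rabgef1 lies at 84.4 FPKM or more in NL and at 19.6 FPKM or less in LD on the right, where it is nearer the others shown.

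The wider group of lysosomal glycosidases and their partners did not follow Glb1l3. Of 19 genes tested, 1 was higher, none was lower and the median log2 difference was 0.34, beside 4.13% higher and a median of −0.01 over all genes tested. At an unadjusted p under 0.05, 12 were higher and 0 lower, and limma-voom called 2 higher and 0 lower. The call lay at the 2-fold limit: the list had 0 calls without NL-8, LD-1 or LD-7, 2 without NL-7, LD-4 or LD-6, and 3 without LD-8. Of the most abundant genes of the list, Gaa (acid alpha-glucosidase) had a log2 difference of 0.13 (adjusted p = 0.373) and Ctsa, whose product protects Glb1 in the lysosome, one of 0.55 (adjusted p = 1.23e-04), below 2-fold.

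Rabgef1 was compared with the genes it acts with. Among the 10 VPS9-domain exchange factors measured, Rabgef1 had the highest mean FPKM in both groups. Rabgef1 held 66.8 ± 4.19% of the summed FPKM of these factors in NL (61.9 to 71.7%) and 24.5 ± 2.77% in LD (21.8 to 28.7%). Of the other 9, Rin1, a Ras effector that also activates Rab5, was past the thresholds and was higher: 0.548 ± 0.0617 FPKM in NL and 1.33 ± 0.250 FPKM in LD (log2 difference 1.13, SE 0.15, limma adjusted p = 2.77e-04).

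In the whole list of 28 Rab5 GTPases, partners, exchange factors, effectors and Ras genes, 2 were higher and none was lower, beside 4.13% higher and 2.37% lower among all genes tested. The median log2 difference was 0.03 and the range −0.68 to 1.56. The genes called were Rin1 and Rab31, a Rab5 relative, which went from 1.81 ± 0.172 to 5.82 ± 2.19 FPKM (log2 difference 1.56, SE 0.22, limma adjusted p = 3.71e-04). With the closest pairs averaged both stayed past the thresholds, Rin1 at 1.15 (adjusted p = 0.00472) and Rab31 at 1.503 (adjusted p = 0.0048). Rab5c, the most abundant Rab5 gene, had a log2 difference of 0.28 (adjusted p = 8.51e-04) and the Rab5 effector gene Appl2 one of −0.38 (adjusted p = 7.52e-05), both below 2-fold. At an unadjusted p under 0.05, 6 were higher and 7 lower, and limma-voom on the recovered reads called 2 higher and 0 lower. The lowest of the 28, at −0.68, was above the Rabgef1 difference of −2.77. Of 5 mast cell markers (Cpa3, Mcpt4, Tpsb2, Cma1 and Fcer1a), 4 were under 0.1 FPKM in every retina, and their summed FPKM was at most 0.138 in NL and 0.168 in LD.

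The genes that flank Glb1l3 and Rabgef1 were compared next, whatever their distance. Of the 12 nearest protein-coding genes, 3 on each side of either gene, 11 were tested, and Glb1l2 was called lower, none was called higher and the median log2 difference was −0.08, beside 2.37% lower, 4.13% higher and a median of −0.01 among all genes tested. At an unadjusted p under 0.05, 5 were lower and 1 higher, and limma-voom called the same number as limma, 1 lower and 0 higher. The other 10 (Eepd1, B3gat1, Acad8, Thyn1, Crcp, Tpst1, Kctd7, Tmem248, Sbds and Tyw1) ranged from −0.40 to 0.25. Some of these lay far off: Eepd1, the lowest at −0.40, was 1213.842 kb from Glb1l3. Acad8 and Thyn1 were 113 and 139 kb from Glb1l3, and Crcp was 111 kb from Rabgef1. Tmem248, 2.738 kb beyond the end of Rabgef1 on the same strand, had 12.3 ± 0.628 FPKM in NL and 12.4 ± 0.681 FPKM in LD (log2 difference 0.02, adjusted p = 0.854). Gm1110, the neighbour of Glb1l3 on the other side from Glb1l2, was below the filter at 0.0677 ± 0.0260 and 0.0448 ± 0.0105 FPKM. Glb1l2 shares 58 bases with B3gat1 on the opposite strand, and B3gat1 had a log2 difference of −0.08 (adjusted p = 0.571).

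**Figure D4:**
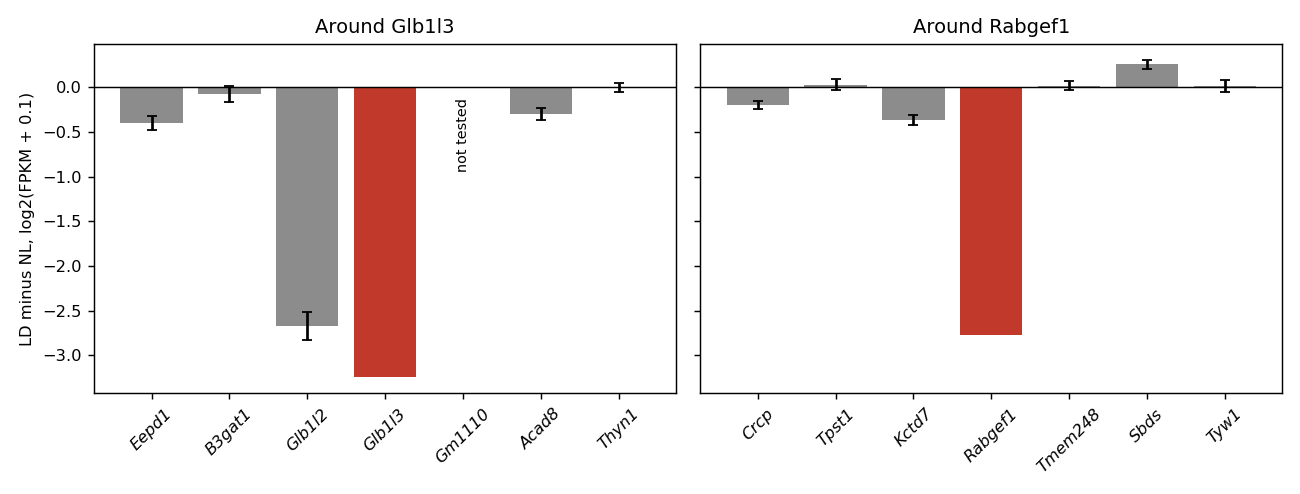
LD minus NL difference of mean log2(FPKM + 0.1) for the genes around Glb1l3 (left) and Rabgef1 (right) in chromosome order. Glb1l3 and Rabgef1 are in red, without error bars because they were chosen for this difference. Bars on the other genes are limma standard errors. Glb1l2 at −2.67 is the only neighbour tested that lies outside the range of −0.40 to 0.25.

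Rod genes were lower in the same retinas. All 16 rod genes listed passed the test on the lower side, with a median log2 difference of −2.11 and a range of −2.74 to −1.26, beside 2.37% of all genes tested. Gnat1, which encodes rod transducin, had a log2 difference of −2.71 (SE 0.26, limma adjusted p = 3.03e-05). In the order of differences with these 16, Glb1l3 was first and Rabgef1 second, Gm15921 was at place 8 of 20 and Gm15920 last. Glb1l3 and Rabgef1 were chosen for large decreases, so nothing is read from their places. The place of Glb1l3 also depends on the pseudocount, since with 1 FPKM its difference was −1.65. In bulk tissue, fewer rods and less RNA per rod cannot be told apart, and the cell type that expresses Glb1l3 or Rabgef1 was not measured.

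The levels were therefore also taken relative to the mean log2(FPKM + 0.1) of the 16 rod genes in the same retina. On this scale Rabgef1 was lower by 0.67 in LD (difference −0.67), from −2.30 ± 0.17 to −2.97 ± 0.24 (SD, n = 5), and the ranges of −2.47 to −2.10 and −3.25 to −2.75 did not overlap. Glb1l3 went from −7.46 ± 0.54 to −8.61 ± 0.30, a difference of −1.15, and its ranges of −8.37 to −7.00 and −8.91 to −8.12 did overlap through NL-8. The Glb1l3 difference on this scale depends on the pseudocount, because its LD levels of 0.120 to 0.282 FPKM lie close to 0.1 FPKM. Glb1l2 differed by −0.57 on the same scale. The part of the rod genes in the differences of Glb1l3 and Rabgef1 was not tested.

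Markers of other cells moved less uniformly. Of 7 cone genes, 4 were lower (Opn1sw, Opn1mw, Arr3 and Gnat2), beside 2.37% of all genes tested, with a median log2 difference of −1.46 and summed FPKM of 304 to 471 in NL and 47.8 to 161 in LD. No gene was called among 6 bipolar, 5 amacrine, 3 horizontal, 5 ganglion cell and 6 pigment epithelium markers (at an unadjusted p under 0.05, 5 of the 25 were lower and 0 higher; limma-voom called 0). Of 5 Müller glia markers, Vim was higher and Glul lower, and of 5 microglia markers Cx3cr1, Aif1 and C1qa were higher, beside 4.13% of all genes tested, with summed FPKM of 14.7 to 24.8 in NL and 28.9 to 72.3 in LD. At an unadjusted p under 0.05, 7 cone genes were lower, 2 Müller glia markers were higher and 2 lower, and 4 microglia markers were higher and 1 lower. Their part in the differences of Glb1l3 and Rabgef1 was not tested.

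Genes with a profile most like those of Glb1l3 and Rabgef1 were named by the root mean square difference of log2(FPKM + 0.1), centred on the NL mean, over the 10 retinas among 12689 protein-coding genes. For Rabgef1, the 5 nearest included Glb1l2 (0.13), Reep6 (0.16), Hist1h1c (0.18) and Nrl (0.21). For Glb1l3, they included Rabgef1 (0.48), Glb1l2 (0.53), Gnat1 (0.54) and Reep6 (0.55), while Glb1l3 was at place 23 for Rabgef1. The measure takes in both the LD difference, −3.25 for Glb1l3 and −2.77 for Rabgef1, and the spread within groups, which were not separated. The coefficient of variation was 35.0% in NL and 30.3% in LD for Glb1l3, and 16.3% and 21.2% for Rabgef1.

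The order of retinas within groups is part of this measure, so for genes it named it is a description. NL-5 was the highest NL retina and NL-8 the lowest for Glb1l3, Rabgef1, Glb1l2 and Gnat1, with Gnat1 at 3119 and 2431 FPKM. LD-4 and LD-6 were the lowest LD retinas for Rabgef1, Glb1l2 and Gnat1, with Gnat1 at 274 and 299 FPKM against 484 to 653 FPKM in LD-1, LD-7 and LD-8. LD-4 and LD-6 are 1 of the 3 close pairs of retinas. Glb1l3 departed from this order in LD, where LD-7 at 0.184 FPKM lay below LD-4 at 0.188 FPKM, a difference of 11 reads against 10 that is within counting error.

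**Figure D5:**
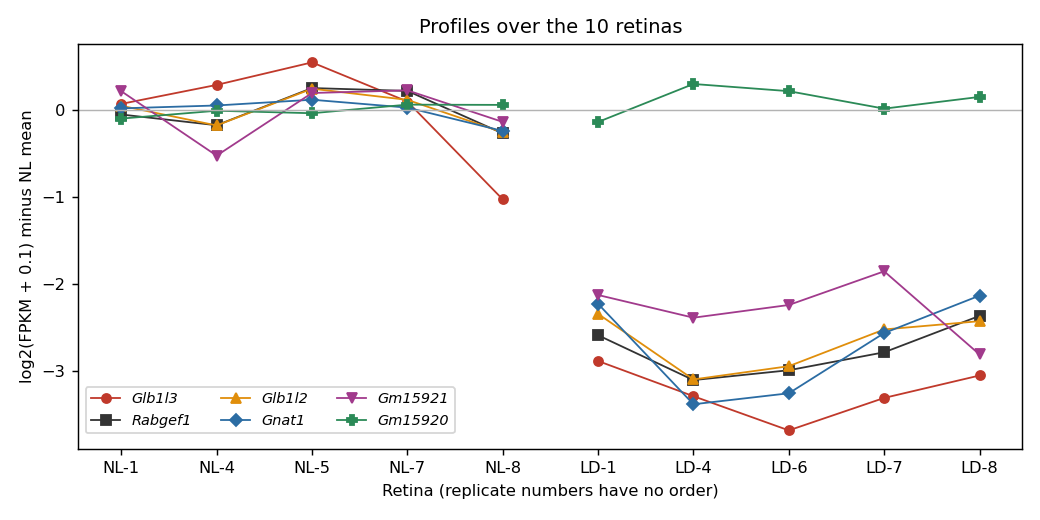
Log2(FPKM + 0.1) minus the NL mean of each gene for the 10 retinas, with lines that join the points of a gene only to guide the eye. Rabgef1 and Glb1l2 run close together with Gnat1 near them, Glb1l3 is the lowest in NL-8 and in every LD retina except LD-4, Gm15921 varies more, and Gm15920 stays near 0 throughout.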

How the data were processed

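For NL and LD, 5 neural retinas each were measured by RNA-seq of total RNA extracted with Trizol (Illumina TruSeq kit); the labels and the study name different Illumina instruments. The authors deposited FPKM per gene. The submitters' processing notes name TopHat2 2.0.9, Bowtie2 2.0.6 and mm8, but the deposited lengths of the 4 genes equal the GENCODE M21 exons of GRCm38, whose positions are given. The counting program and its use of strand are not given in the sources used here. FPKM times length gave whole reads for 100% of values above 0 (tolerance 0.01 reads). The deposited FPKM are scaled by the recovered reads and also divided by a factor per retina. This factor was 0.951 to 0.968 in NL and 1.041 to 1.069 in LD, so it lowers LD values relative to NL.

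Genes reaching 0.1 FPKM in 5 or more retinas were fitted together with limma 3.58.1 (R 4.3.3) on log2(FPKM + 0.1), with an intensity trend, no covariate, and p-values adjusted by Benjamini-Hochberg across all 24508 genes that passed. This scale understates changes of low genes. A gene was called at an adjusted p under 0.01 and more than a 2-fold change, the study's thresholds. No p is given for Glb1l3, Rabgef1, Gm15920 or Gm15921. Fold differences of these genes are ratios of mean FPKM. The members and all gene lists were chosen with earlier results of these data known. Named genes were the members, genes overlapping them, neighbours, the beta-galactosidase family, list genes called plus the 2 most abundant of each list, and the 5 genes of most similar profile among those averaging 1 FPKM or more in NL or LD; Gusb was named after its values were seen. Some genes that this rule names are not reported here. Sequences shared between annotated transcripts were found as identical 50-base stretches and with BLAST 2.17.0, and promoters are RefSeq's. Scripts were tested on simulated data.

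Alternatives were other pseudocounts, filters, scalings and thresholds, limma-voom on the recovered reads, leaving out each retina, a replicate block, and, chosen after seeing the data, averaging the closest pairs of retinas. Same-numbered NL and LD retinas did not deviate together (correlations of −0.09 to 0.07 over 4 shared numbers), so the numbers were not taken as pairs.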

Additional observations from a re-analysis of the deposited data

Results flagged for a closer look

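Within-group values of the genes described and their parents, family and nearest genes were searched for retinas far from the others of their group, in 28 groups of 5 retinas. A retina stood far from the rest in 2 of them, where chance gives about 1.4. Ndufa12, the parent of Gm15920, reached 24.1 FPKM in LD-8, while the remaining LD retinas held 10.9 to 13.99 FPKM. Rpl21, which Gm15921 resembles, reached 4.53 FPKM in NL-4, while the remaining NL retinas held 1.29 to 1.65 FPKM. Glb1l3 in NL-8 (1.29 FPKM) was not far enough from NL-1 (2.88 FPKM) to be counted.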

How the results depend on the processing

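No difference of Glb1l3, Rabgef1, Gm15921 or Gm15920 changed sign under any alternative. The Rabgef1 log2 difference ranged from −2.78 to −2.64 over the alternatives and from −2.87 to −2.68 when each retina was left out in turn, and with each retina left out Glb1l3 ranged from −3.50 to −3.11, Gm15921 from −2.41 to −2.15 and Gm15920 from 0.07 (without LD-4) to 0.18 (without LD-1). A pseudocount of 1 FPKM moved Glb1l3 to −1.65 and Gm15921 to −1.30, and one of 0.01 FPKM moved Glb1l3 to −3.73. Leaving out the factor per retina raised the median LD minus NL difference of all genes by 0.12 on the log2 scale. Gm15920 then moved to 0.25, and 1201 genes were called higher and 465 lower (72.1% higher, 63.5% as deposited).

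Of all genes tested, 1595 were called (1013 higher, 582 lower), against 816 with a pseudocount of 1 FPKM and 6818 (3543 higher, 3275 lower) at an adjusted p under 0.05 with no minimum fold. That looser rule called 2 family genes, 11 lysosomal glycosidase genes, 11 Rab5 pathway genes and 6 neighbours. With a pseudocount of 1 FPKM the lysosomal list had 0 calls and the Rab5 list 1. The lysosomal list had 2 calls with a pseudocount of 0.01 FPKM, 3 without the factor, 2 with limma-voom and 0 with the closest pairs averaged, and 0 to 3 when each retina was left out. Gusb passed in 2 of the alternatives, and Rin1 was lost in 2 and Rab31 in 1. The cause of these moves was not tested.

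With the replicate block over the 4 shared numbers, 808 genes were called, the lysosomal list had 0 calls and the Rab5 list 0. The same 8 retinas without the block gave 1182 calls, 0 for the lysosomal list and 2 for the Rab5 list. Of the 4 shared numbers, 1 retina pair correlated best with its own number. The labels do not say what the numbers stand for, and 4 pairs are too few to settle whether same-numbered retinas share an origin. Glb1l2 was called under every alternative, and of the rod genes 16 were called except under quantile normalization and the block, with 14 each. Depth limits Glb1l3 and Gm15921 in LD, where retinas held 7 to 18 and 3 to 7 reads.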
